A study of Homo sapiens with 16 samples.

Results

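Kinesins were followed on arrays of HepG2 cells by taking every probe whose gene symbol in the platform's probe table begins with KIF and a digit or with KIFC. The rule found 43 probes for 36 symbols among 30968 probes, of which 17397 carry one of 15240 different symbols. Of these, 10 probes for 9 symbols belong to the mitotic kinesins KIF2C, KIF4A, KIF11, KIF14, KIF15, KIF18A, KIF20A, KIF22 and KIF23, and 33 probes for 27 symbols to all other kinesins. KIFC1, also on the mitotic list of 10 symbols, has no probe under that symbol. A probe entered the tests when its value was above 0 in all 16 samples, as 32 probes for 30 symbols did: 6 mitotic probes, for 6 symbols, and 26 other probes, for 24 symbols. The remaining 11 probes, 4 of them mitotic, had values at or below 0 in at least 1 sample and are described separately. The rule reads gene symbols only. Genes of the same motor family that carry other symbols, such as CENPE, are not members.

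Kinesins are motor proteins that use ATP to move along microtubules or to take microtubule ends apart. One set works in dividing cells, where it builds the spindle, aligns chromosomes and completes cytokinesis, and its genes are transcribed mostly in the late part of the cell cycle. The rest carry vesicles, mitochondria, RNA and ciliary components, or regulate microtubule ends, in dividing and resting cells alike. Hepatocytes depend on such transport to move secretory and endocytic vesicles between their surfaces, and cultured hepatoma cells also divide.

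HepG2 comes from a human liver tumour and still shows many functions of hepatocytes. The 4 groups, with 4 biological replicates each, were cells given elaidic acid, oleic acid or stearic acid and a control with no added fatty acid. Each acid was present at 100 µM for 7 days, and all groups were kept free of serum. Elaidic acid is the trans isomer of oleic acid, which is cis, and stearic acid is the saturated acid of the same chain length. RNA was amplified and labelled with Cy5, and each sample has 1 deposited value per probe although its labels name 2 technical replicates. The model is a single tumour line at 1 dose and 1 time, and bulk RNA cannot tell a larger share of dividing cells from more RNA per cell.

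Median deposited intensity ran from 19.95 to 76.1 over the 16 samples, and all levels below are intensities after quantile normalisation between samples. By the array numbers that the labels give, the samples come from 2 sets of slides, here slide series A and B. Elaidic acid replicates 2 and 4 lie in series A, together with oleic acid and control, and elaidic acid replicates 1 and 3 lie in series B, together with stearic acid. Changes are log2 differences ± SE from limma with 4 samples a group, and called means a p under 0.05 after Benjamini-Hochberg adjustment over the 22939 probes tested. A second fit took slide series as a block. Of 10 hepatocyte markers, 8 had a probe, all above 0 in each sample, with median deposited intensities from 569 (FGB) to 27699 (APOA1). ALB and HNF4A had no probe under those symbols. PTPRC, CD3E, PECAM1, VWF, COL3A1, DCN and SNAP25, markers of leukocytes, endothelium, fibroblasts and neurons, had medians of 21.9 or less. Medians of CD14, CDH5, COL1A1, SYT1 and STMN2, other markers of those cell types, ran from 215 to 1545.

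The promoters of the kinesins whose values the results turn on are shown first, because the CHR element (TTTGAA) and the CCAAT box are the sequence elements known from promoters of late cell cycle genes. Each run is the RefSeq promoter on GRCh38.p14, 5′ to 3′ on the gene's strand, from 250 bases before the start site to 50 after it. Capitals mark TTTGAA or CCAAT on either strand, so that TTCAAA and ATTGG are the same elements read from the opposite strand, and no 2 matches overlap.

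KIF4A, chrX:70289854-70290153, plus strand: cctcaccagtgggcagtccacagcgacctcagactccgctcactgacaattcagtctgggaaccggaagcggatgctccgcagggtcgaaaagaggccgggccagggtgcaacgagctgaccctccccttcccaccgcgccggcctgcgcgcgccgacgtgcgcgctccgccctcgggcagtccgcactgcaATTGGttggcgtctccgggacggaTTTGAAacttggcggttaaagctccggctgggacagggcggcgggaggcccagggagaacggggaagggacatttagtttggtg

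KIF2C, chr1:44739587-44739886, plus strand: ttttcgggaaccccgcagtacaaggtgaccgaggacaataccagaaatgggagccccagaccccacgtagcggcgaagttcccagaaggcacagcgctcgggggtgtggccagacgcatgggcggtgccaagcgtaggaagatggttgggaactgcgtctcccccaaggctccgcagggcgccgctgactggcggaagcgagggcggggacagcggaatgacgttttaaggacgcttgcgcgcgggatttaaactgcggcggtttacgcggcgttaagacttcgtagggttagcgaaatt

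KIF11, chr10:92592880-92593179, plus strand: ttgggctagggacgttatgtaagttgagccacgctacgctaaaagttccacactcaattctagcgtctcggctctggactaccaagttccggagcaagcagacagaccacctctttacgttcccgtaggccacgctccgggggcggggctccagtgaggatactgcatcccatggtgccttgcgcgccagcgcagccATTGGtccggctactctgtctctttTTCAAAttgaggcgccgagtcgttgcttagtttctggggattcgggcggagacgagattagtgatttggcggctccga

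KIF23, chr15:69414099-69414398, plus strand: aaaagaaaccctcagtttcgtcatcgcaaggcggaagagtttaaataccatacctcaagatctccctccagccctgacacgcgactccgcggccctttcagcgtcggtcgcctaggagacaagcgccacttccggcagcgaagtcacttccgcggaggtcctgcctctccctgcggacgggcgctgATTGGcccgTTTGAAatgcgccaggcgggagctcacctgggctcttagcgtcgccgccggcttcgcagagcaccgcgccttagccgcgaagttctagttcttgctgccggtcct

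KIF20A, chr5:138178862-138179161, plus strand: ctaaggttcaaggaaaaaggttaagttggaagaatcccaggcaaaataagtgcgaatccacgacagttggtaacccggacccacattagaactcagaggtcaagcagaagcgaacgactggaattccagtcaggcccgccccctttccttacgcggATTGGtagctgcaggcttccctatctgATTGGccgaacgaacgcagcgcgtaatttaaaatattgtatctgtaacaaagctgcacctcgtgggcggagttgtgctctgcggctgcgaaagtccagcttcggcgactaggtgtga

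KIF22, chr16:29790501-29790800, plus strand: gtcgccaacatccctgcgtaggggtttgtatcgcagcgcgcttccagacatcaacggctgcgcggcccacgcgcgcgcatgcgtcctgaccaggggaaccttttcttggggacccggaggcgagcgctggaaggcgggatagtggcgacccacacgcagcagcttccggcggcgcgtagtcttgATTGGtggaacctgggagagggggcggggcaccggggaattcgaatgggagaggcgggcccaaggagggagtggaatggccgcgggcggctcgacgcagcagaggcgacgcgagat

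KIF5B, chr10:32056376-32056675, minus strand: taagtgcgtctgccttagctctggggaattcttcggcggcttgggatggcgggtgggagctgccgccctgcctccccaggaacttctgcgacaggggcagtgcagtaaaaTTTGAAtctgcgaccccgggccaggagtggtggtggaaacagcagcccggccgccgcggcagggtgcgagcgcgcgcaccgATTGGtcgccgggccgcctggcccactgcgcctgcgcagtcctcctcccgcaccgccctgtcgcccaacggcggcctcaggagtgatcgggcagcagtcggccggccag

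In the KIF4A promoter TTTGAA lies 34 bases and CCAAT 58 bases before the start site. In KIF11 the distances are 28 and 53 bases, and in KIF23 they are 55 and 64 bases. KIF20A has CCAAT at 94 and 67 bases and KIF22 has it at 66 bases, both without TTTGAA in this window, and KIF2C has no match to either. A second RefSeq start of KIF22 has no match in its own window. KIF5B is the heavy chain of conventional kinesin present in most cells. Among kinesins outside the mitotic list that have a promoter entry, it is the 1 with both elements. Its TTTGAA lies farther away, at 140 bases, and its CCAAT at 59.

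Promoters were found for 29 of 37 symbols (KIFC1 included), several with more than 1 start. The symbols without an entry, KIF13B, KIF19, KIF21B, KIF26B, KIF27, KIF5A, KIFC2 and KIFC3, are all outside the mitotic list. TTTGAA occurred in 7 of 11 mitotic kinesin promoters (63.6%), against 1 of 27 other kinesin promoters (3.7%) and 15.2% of all 35116 promoters. CCAAT occurred in 8 of 11 mitotic promoters (72.7%), against 8 of 27 other kinesin promoters (29.6%) and 34.6% of all. Both stood together in 6 of 11 mitotic promoters, against 1 of 27 other ones and 5.9% of all. Among promoters of the kinesins tested below, TTTGAA occurred in 3 of 7 mitotic ones (42.9%), against 1 of 21 other ones (4.76%). CCAAT occurred there in 5 of 7 (71.4%), against 7 of 21 (33.3%). These counts describe letters in a window, and KIF2C, which has neither match, was among the kinesins with the largest changes below.

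With elaidic acid the 6 mitotic kinesins that could be tested were all higher than in control cells, by a median of 1.55 on the log2 scale, and KIF4A and KIF2C passed the test. With an offset of 50 the median was 0.47, taken over 9 mitotic kinesin genes because KIF14, KIF15 and KIF18A then also enter. The calls of KIF4A and KIF2C were lost without normalisation. The other 24 testable kinesin genes were split evenly, with 12 higher, and had a median of -0.02, which was 0.14 without normalisation. Over all tested probes 43.5% were higher and the median was -0.10, or 0.010 without normalisation.

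KIF4A is a chromokinesin that works with PRC1 on the central spindle (probe PH_hs_0014396). Its normalised intensity was 199, 274, 191 and 167 in elaidic acid replicates 1 to 4, against 54.1, 32.6, 81.5 and 31.4 in control. Every elaidic acid sample lay above every control sample, and control replicate 3 was the highest control. The change was 2.15 ± 0.33, or 4.43-fold (limma adjusted p = 0.00942).

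KIF2C, or MCAK, takes apart microtubule ends at kinetochores and so corrects faulty chromosome attachments (PH_hs_0004101). Its intensity was 735, 1174, 700.5 and 935 in elaidic acid samples, against 274, 157, 343 and 145 in control. The groups did not overlap, elaidic acid replicate 2 was the highest of all 16 samples, and control replicate 3 was again the highest control. The change was 2.01 ± 0.31, or 4.03-fold (limma adjusted p = 0.0117).

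With slide series as a block the changes of KIF4A and KIF2C were 2.21 ± 0.40 and 2.28 ± 0.37, as large as without it, but with adjusted p = 0.0730 and 0.0506 neither was called, as 0.0392% of all probes were with that block. The blocked fit compares 2 elaidic acid samples with 4 control samples inside series A. Both were called in all 16 fits that left out 1 sample.

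The other 4 testable mitotic kinesins did not pass. KIF11 (Eg5), the motor that pushes spindle poles apart (PH_hs_0000937), had 41.9, 16.4, 32.8 and 29.2 in elaidic acid samples, against 13.7, 3.85, 9.03 and 5.40 in control. The groups did not overlap, although elaidic acid replicate 2 was close to control replicate 1. Its change was 2.003 ± 0.45 (limma adjusted p = 0.0788). These intensities lie near background, and with an offset of 50 the change was 0.47, so its size is uncertain.

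KIF20A (MKLP2) carries the chromosomal passenger complex to the spindle midzone (PH_hs_0004207). It had 1308, 1596, 1181 and 1357 in elaidic acid samples, against 584, 478, 903 and 643 in control. The groups did not overlap, and the 4 elaidic acid samples were close together. The change was 1.09 ± 0.24, or 2.13-fold (limma adjusted p = 0.0788).

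KIF22 (Kid), a chromokinesin that pushes chromosome arms away from the poles (PH_hs_0006588), had 9887, 13332, 8450.1 and 9918 in elaidic acid samples, against 7679, 5042, 7097 and 6676 in control. All elaidic acid samples lay above all controls, by a small margin between elaidic acid replicate 3 and control replicate 1. The change was 0.65 ± 0.23 (limma adjusted p = 0.23).

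KIF23 (MKLP1), the motor of the centralspindlin complex (PH_hs_0013935), had the low intensities 22.2, 20.5, 15.6 and 22.8 in elaidic acid samples, against 7.57, 15.4, 18.0 and 7.01 in control. Here the groups overlapped, since elaidic acid replicate 3 lay below control replicate 3. The change was 0.87 ± 0.43 (limma adjusted p = 0.37).

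**Figure D1:**
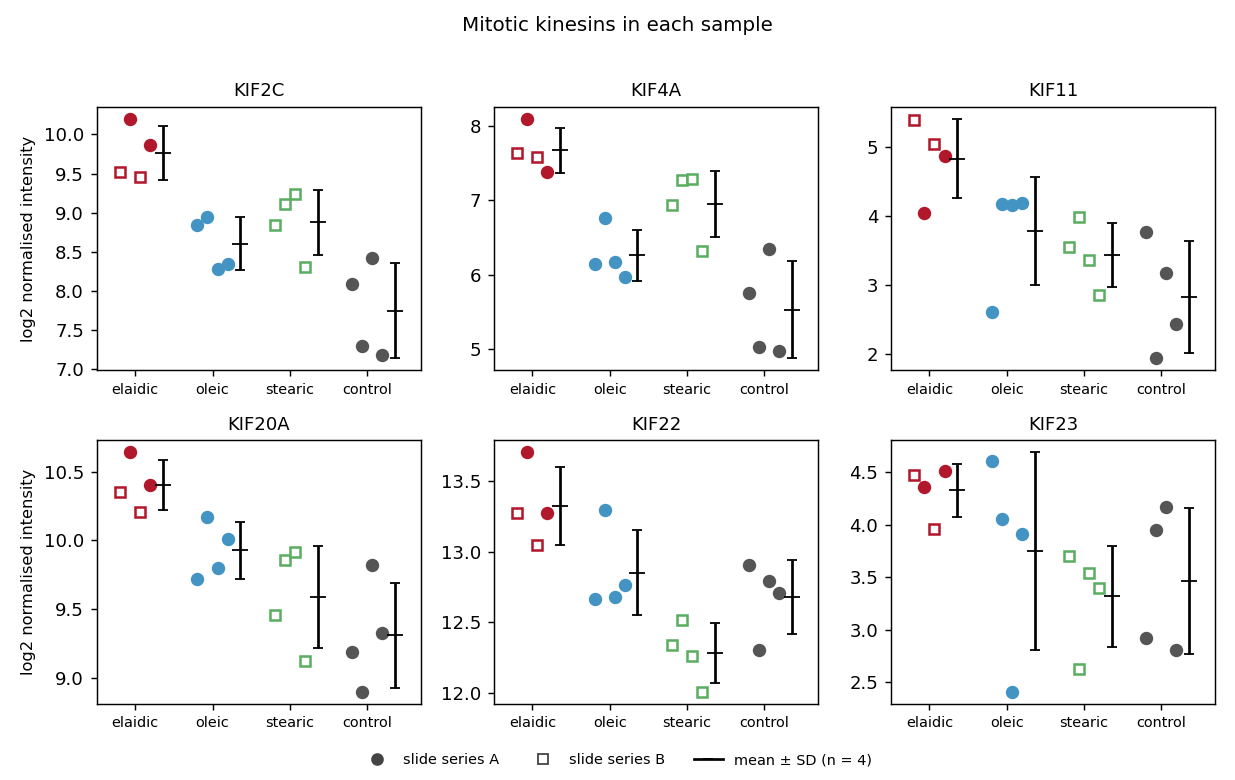
Normalised intensity (log2) of the 6 testable mitotic kinesins in each sample, with the mean and SD of 4 samples beside each group; filled circles are slide series A and open squares series B. For KIF4A the elaidic acid samples span 167 to 274 in linear units and the control samples 31.4 to 81.5, and the groups overlap for KIF23 alone.

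Counted together, 2 of the 6 mitotic probes were called in elaidic acid against control, both higher, where 0.305% of all probes were called higher. The elaidic acid samples lay above all control samples for 5 of the 6, where 3.82% of all probes did so. Of the 26 other kinesin probes limma called 0, against 0.323% of all probes in either direction. Among the same 26, 3 reached an unadjusted p under 0.05, against 14.3% of all probes, and the groups were apart for 1, KIF13B. The 6 are those that passed the filter on values at or below 0, so that these counts say nothing of KIF14, KIF15 and KIF18A.

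Within slide series A the 2 elaidic acid samples lay above all 4 control samples for 6 of 6 mitotic probes, where 7.17% of all probes did so, and for 4 of 26 other kinesin probes. Those 4 were for KIF2B, KIF9, KIF13B and KIF27. The probes of KIF2B, KIF9 and KIF27 lie near background, with mean intensities of 18.4, 8.36 and 13.1. The blocked changes of the 6 mitotic kinesins ran from 0.81 to 2.28, with a median of 1.42.

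**Figure D2:**
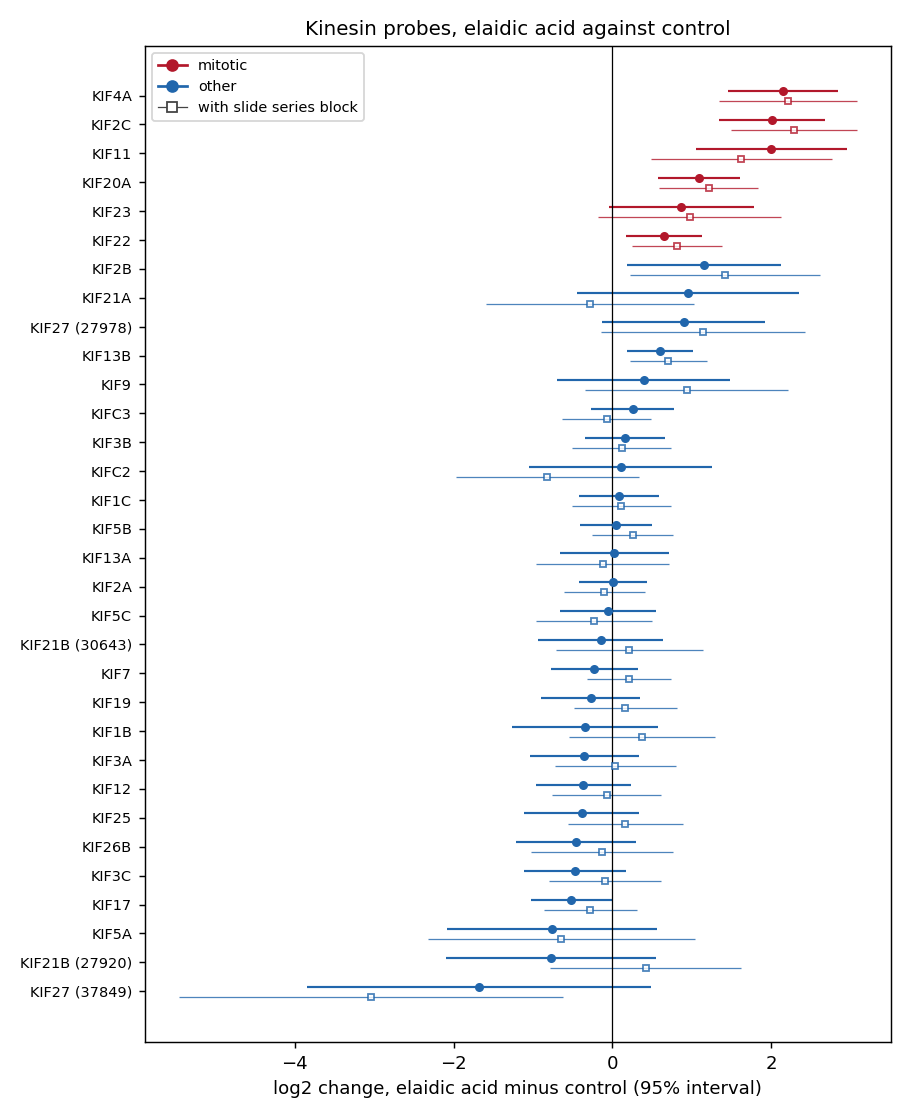
Log2 change of each testable kinesin probe, elaidic acid minus control, with its 95% interval; filled circles are the fit without a block and open squares the fit with slide series as a block, and numbers after a symbol tell apart probes of 1 gene. The 6 mitotic kinesins, in red, all lie right of 0 in both fits, while the 26 other probes lie on both sides, and KIF21A is at -0.28 with the block and at 0.96 without it.

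Oleic acid, the cis isomer, gave smaller differences from control. All 6 mitotic kinesins were higher, by a median of 0.67, where 51.9% of all probes were higher. Limma called 0 of 32 kinesin probes, and 0% of all probes, in this comparison. At an unadjusted p under 0.05, 4 mitotic kinesins (KIF2C, KIF4A, KIF11 and KIF20A) and 0 of 26 other kinesin probes were found, against 2.62% of all probes. Both groups lie in slide series A.

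KIF2C had 459.8, 494, 312 and 324 in oleic acid samples, against the control values above, and differed from control by 0.86 ± 0.31 (limma adjusted p = 1.00). Control replicate 3 lay above oleic acid replicates 3 and 4, and every other control sample below all oleic acid samples. KIF4A had 70.9, 108, 71.7 and 62.3 in oleic acid samples and a difference from control of 0.73 ± 0.33 (limma adjusted p = 1.00). Control replicate 3 lay above 3 of the 4 oleic acid samples.

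Elaidic and oleic acid, which differ in the geometry of their double bond, were compared directly at the same dose and time. Elaidic acid gave the higher value for all 6 mitotic kinesins, with a median difference of 0.82, where 42.9% of all probes were higher. Limma called none of the 6 (0 of 32 kinesin probes, against 0.318% of all probes), and 3 mitotic and 3 other kinesin probes reached an unadjusted p under 0.05, against 18.9% of all probes. The difference in KIF4A was 1.41 ± 0.33, with a 95% interval of 0.72 to 2.11 (limma adjusted p = 0.0867). In KIF2C it was 1.15 ± 0.31, with an interval of 0.49 to 1.82 (limma adjusted p = 0.13). For both genes and for KIF20A each elaidic acid sample lay above each oleic acid sample, where 4.07% of all probes did so.

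The same 3 genes were also apart within slide series A, where the 2 elaidic acid samples lay above the 4 oleic acid samples (6.29% of all probes). For KIF11 the elaidic minus oleic difference was 1.05 ± 0.45, for KIF22 0.47 ± 0.23, for KIF20A 0.47 ± 0.24 and for KIF23 0.58 ± 0.43, with intervals whose lower ends ran from -0.33 to 0.10. For KIF20A, KIF22 and KIF23 these intervals include 0, which does not show that the isomers act alike.

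Elaidic and stearic acid, unsaturated and saturated, were compared in the same way. Again elaidic acid gave the higher value for all 6 mitotic kinesins, with a median difference of 0.95, where 54.8% of all probes were higher, and all 6 reached an unadjusted p under 0.05, where 14.5% of all probes did so in either direction. Limma called 0 of 32 kinesin probes, against 0.397% of all probes. KIF22 came closest, with 9887, 13332, 8450.1 and 9918 in elaidic acid samples, against 5164, 5861, 4892 and 4113 in stearic acid samples. The groups were far apart, and the difference was 1.05 ± 0.23 (limma adjusted p = 0.0578).

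Each elaidic acid sample lay above each stearic acid sample for 6 of 6 mitotic probes, where 4.72% of all probes did so. Among the 26 other kinesin probes this held for KIF5C alone, while KIF1C and KIFC3 lay apart in the opposite direction, as 7.13% of all probes did. Within slide series B, where all 4 stearic acid samples and 2 elaidic acid samples lie, it again held for 6 of 6 mitotic probes, where 11.1% of all probes did so. The blocked differences, from 0.61 to 1.77, come from inside that series. With the block 3 of the 6 reached an unadjusted p under 0.05, against 5.82% of all probes.

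With stearic acid KIF4A and KIF2C rose against control and the other 4 testable mitotic kinesins did not pass. KIF4A had 122, 154, 156 and 80.0 in stearic acid samples, against 54.1, 32.6, 81.5 and 31.4 in control, and rose by 1.42 ± 0.33 (limma adjusted p = 0.00717). KIF2C had 458, 553, 607 and 317 in stearic acid samples, against 274, 157, 343 and 145 in control, and rose by 1.13 ± 0.31 (limma adjusted p = 0.0176). For both genes control replicate 3 was above stearic acid replicate 4, so that the groups overlapped.

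KIF11 differed from control by 0.61 ± 0.45, KIF20A by 0.28 ± 0.24, KIF23 by -0.14 ± 0.43 and KIF22 by -0.40 ± 0.23, the last 2 at 0.083 and 0.35 without normalisation. With the slide series block KIF11 was at -0.15 and KIF23 at 0.074. KIF22 was below the whole control range in stearic acid replicates 3 and 4, and its mean of 5008 ± 723 was the lowest of the 4 groups, against 6624 ± 1132 in control (SD, n = 4).

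The 2 calls compare with 29.8% of all probes called in either direction. Stearic acid shares no slide series with control, so series and acid cannot be told apart there without the elaidic acid samples as a bridge. Through that bridge the change was 1.56 ± 0.57 for KIF4A (adjusted p = 0.50) and 1.67 ± 0.52 for KIF2C (adjusted p = 0.43). Without stearic acid replicate 3 the change of KIF2C was 1.00 and was not called (adjusted p = 0.0553).

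In order of mean intensity KIF4A ran elaidic acid, 208 ± 45.9, stearic acid, 128 ± 35.5, oleic acid, 78.3 ± 20.5, and control, 49.9 ± 23.5 (SD, n = 4 each). KIF2C had the same order, with 886 ± 218 with elaidic acid, 484 ± 127 with stearic acid, 398 ± 93.1 with oleic acid and 229.7 ± 95.1 in control. KIF11, KIF20A, KIF22 and KIF23 also had their highest mean with elaidic acid, followed by oleic acid, although without normalisation the oleic minus stearic difference turned to -0.46 for KIF20A, -0.31 for KIF22 and -0.0020 for KIF11. Oleic and stearic acid did not differ beyond the threshold for any of the 6. The oleic minus stearic difference was -0.69 ± 0.33 for KIF4A, with a 95% interval of -1.38 to -0.00093, and 0.57 ± 0.23 for KIF22, with an interval of 0.09 to 1.05. These 2 groups share no slide series, since oleic acid lies in series A and stearic acid in series B. With the slide series block the 6 differences ran from -0.83 to 1.11, with a median of 0.15. Then 0 of the 6 reached an unadjusted p under 0.05, where 710 of all 22939 probes did so with oleic acid higher.

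**Figure D3:**
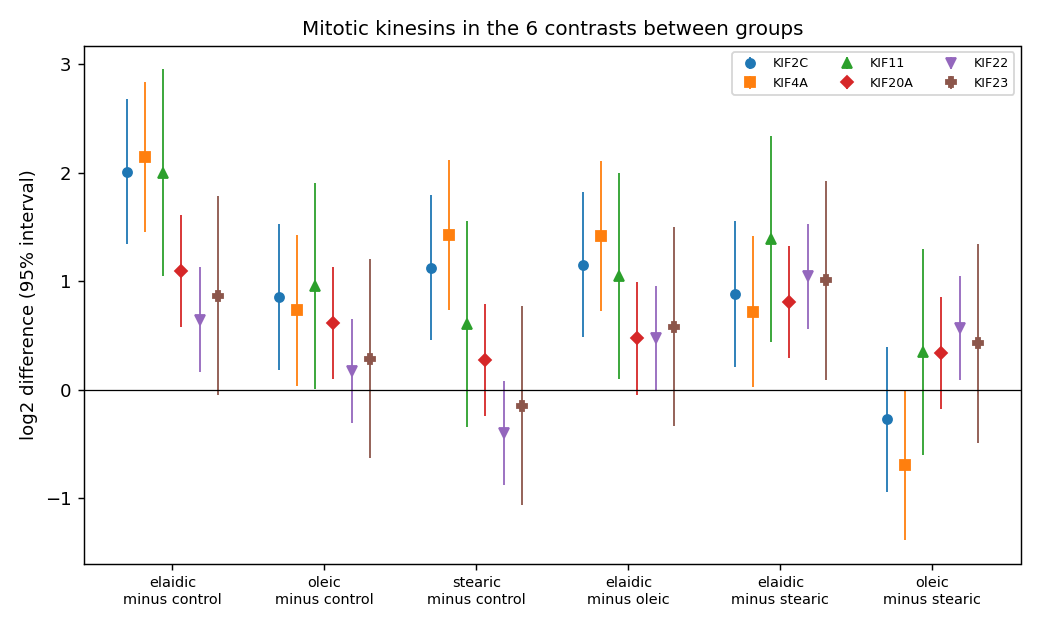
Log2 difference of the 6 testable mitotic kinesins in each of the 6 contrasts, with 95% intervals of the fit without a block. The contrasts share samples and are not independent. Elaidic acid is higher than each of the other 3 groups for all 6 genes, from 0.47 (KIF20A and KIF22, against oleic acid) to 2.15 (KIF4A, against control), while oleic minus stearic acid lies on both sides of 0.

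The 4 mitotic probes left out of the tests were dim. KIF14, a motor of late cytokinesis, had deposited intensities from -5.39 to 12.2 and was at or below 0 in 7 samples, 1 of them with elaidic acid and 2 in control. KIF15, which can help KIF11 keep spindle poles apart, had -8.04 to 12.5 and was at or below 0 in 5 samples. KIF18A, which damps chromosome movement at the metaphase plate, had -6.51 to 13.05 and was at or below 0 in 7 samples.

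The second KIF4A probe (PH_hs_0033716) had -6.39 to 11.1 and was at or below 0 in 5 samples, none of them with elaidic acid. These values give no usable level for any of the 4. When all probes were kept by setting a floor of 1, the elaidic minus control values were 1.63 for KIF14, 0.77 for the second KIF4A probe, -0.31 for KIF18A and -0.63 for KIF15. Limma called none of them, against 0.123% of all probes with the floor, and 0 of 4 reached an unadjusted p under 0.05, against 11.6%. The 7 other probes left out, for KIF1A, KIF2A, KIF5C, KIF6, KIF7, KIF19 and KIF26A, also had 0 calls in elaidic acid against control with the floor, and 1 of the 7 reached an unadjusted p under 0.05. In stearic acid against control 1 of the 11 was called with the floor, where 16.9% of all probes were. It was a probe (PH_hs_0006244) of KIF2A, a motor that takes microtubule ends apart, with a difference of 2.34 (limma adjusted p = 0.0430). With an offset of 50 it was also called, at 0.31 (limma adjusted p = 0.0453), and the share over all probes was not counted there. Its deposited values lay near background, with a control median of 4.39 and 2 control samples at or below 0. The brighter, tested KIF2A probe (PH_hs_0034470) was not called. Its means were 259 ± 10.9 with stearic acid and 231 ± 29.0 in control (SD, n = 4).

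Among the kinesins outside the mitotic list, none was called with elaidic or oleic acid against control. KIF2B, a relative of KIF2C that also works at kinetochores (PH_hs_0032235), had the largest positive change, with 12.1, 33.6, 33.7 and 25.0 in elaidic acid samples, against 12.4, 9.30, 7.15 and 16.6 in control. Elaidic acid replicate 1 lay within the control range and the other 3 above it. The change was 1.16 ± 0.46 (limma adjusted p = 0.28). These intensities lie near background, and the change ran from 0.33 to 1.42 over the alternatives.

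KIF13B, which carries endosomes and the scaffold protein DLG1 (PH_hs_0001453), had 405, 406, 365 and 485 in elaidic acid samples, against 277, 276, 274 and 260.1 in control. The control samples were tight and the groups did not overlap. The change was 0.60 ± 0.19 (limma adjusted p = 0.20).

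The heavy chains of conventional kinesin carry vesicles and mitochondria. KIF5B (PH_hs_0008995) had 385, 402, 310.3 and 532 in elaidic acid samples and 306, 482, 341 and 463 in oleic acid samples, against 409, 381, 401 and 359 in control. The elaidic acid, oleic acid and control samples overlapped, while the stearic acid samples, at 411 to 452, lay above all controls. The elaidic minus control difference was 0.05 ± 0.21, with a 95% interval of -0.41 to 0.50, which excludes a change of 2-fold. KIF5C, the form enriched in neurons (PH_hs_0000665), had 589, 572, 954 and 592 in elaidic acid samples, against 742, 603, 631 and 776 in control. The 2 groups overlapped, and their difference was -0.05 ± 0.28 (limma adjusted p = 0.93).

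KIF3A and KIF3C belong to kinesin-2, whose motors drive transport inside cilia and also carry vesicles. KIF3A (PH_hs_0003172) had 362, 664, 369.7 and 596 in elaidic acid samples, against 1093, 608, 590.3 and 358 in control. The control samples alone spanned more than the elaidic acid samples, and the difference was -0.35 ± 0.32 (limma adjusted p = 0.59). KIF3C (PH_hs_0027097) differed by -0.47 ± 0.30. KIF17 (PH_hs_0007677), a kinesin-2 motor of dendrites and cilia, had 1073, 1429, 1198 and 1739.9 in elaidic acid samples, against 1805, 1736, 2096 and 2031 in control. Elaidic acid replicate 4 alone reached the level of the lowest control sample, replicate 2, and the difference was -0.52 ± 0.24 (limma adjusted p = 0.34).

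KIF27, a relative of the Hedgehog pathway kinesin KIF7, has 2 tested probes that disagreed in sign. One (PH_hs_0027978) had an elaidic minus control difference of 0.90 ± 0.48 and the other (PH_hs_0037849) of -1.68 ± 1.02, and neither passed. The second rests on elaidic acid replicate 4, at 0.225, where the other 3 elaidic acid samples ran from 8.62 to 15.7, so no direction is given for KIF27.

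**Figure D4:**
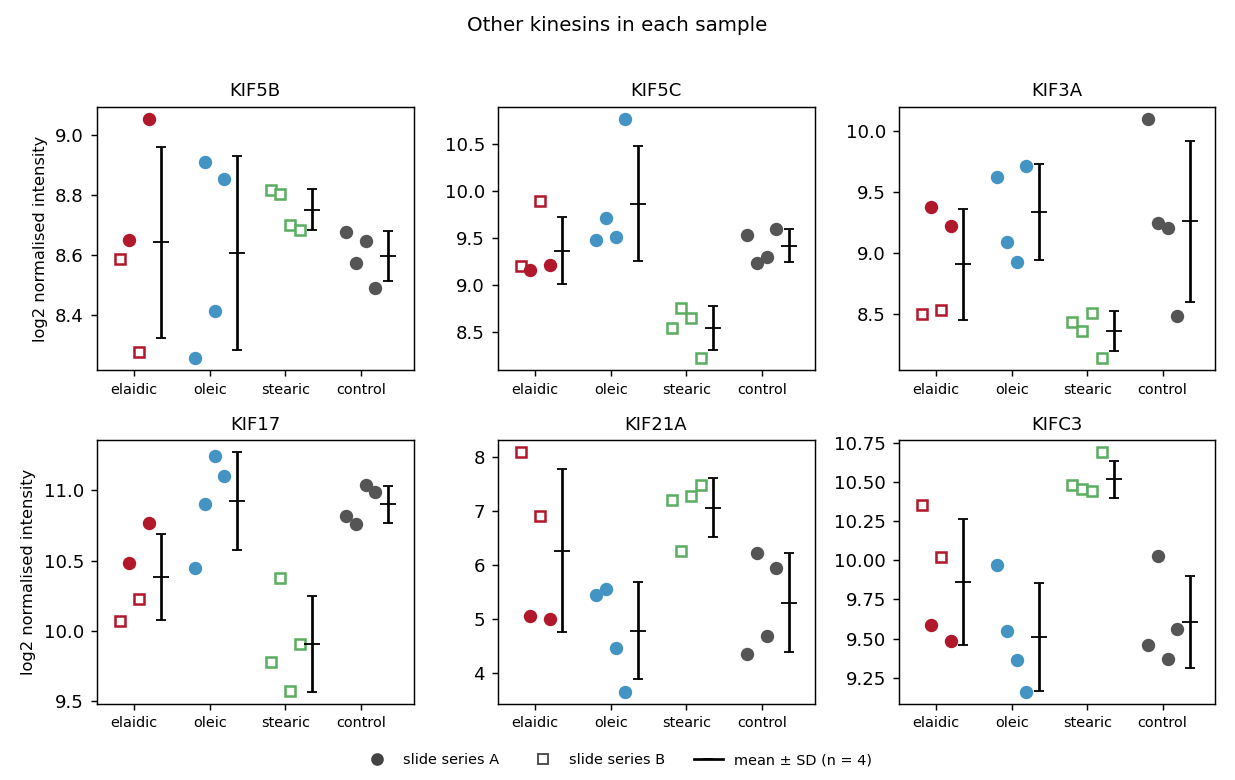
Normalised intensity (log2) of 6 kinesins outside the mitotic list in each sample, with the mean and SD of 4 samples; filled circles are slide series A and open squares series B. KIF21A shows elaidic acid samples of series B near the stearic acid samples and those of series A near control. For KIFC3 the elaidic acid samples of series B lie above those of series A but below all stearic acid samples. KIF5C and KIF17 are lowest with stearic acid.

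With stearic acid 10 of the 26 other kinesin probes were called against control, where 29.8% of all probes were called. Of the 10, 3 were higher (15.0% of all probes) and 7 lower (14.8%). Higher were KIFC3 (0.91 ± 0.25), a minus-end motor of epithelial cells, KIF1C (0.93 ± 0.24), a vesicle motor, and KIF13B (0.76 ± 0.19). Lower were KIF5C (-0.88 ± 0.28), KIF3A (-0.90 ± 0.32), KIF17 (-0.99 ± 0.24), KIF19 (-0.99 ± 0.29), which sets the length of motile cilia, KIF12 (-0.80 ± 0.28), KIF25 (-0.999 ± 0.34) and 1 of 2 tested KIF21B probes (-2.05 ± 0.62). Together with KIF4A and KIF2C, 5 kinesin probes were called higher and 7 lower, which became 5 and 4 with median centring, 5 and 6 with cyclic loess and 5 and 0 without normalisation. The median of all probes in this comparison was -0.18 with quantile normalisation and 0.26 without normalisation.

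KIFC3 (PH_hs_0002033) had 1430.2, 1405, 1392 and 1653 in stearic acid samples, against 704, 1043, 662 and 757 in control. The 4 stearic acid samples lay close together above all controls (limma adjusted p = 0.0152). Its elaidic acid samples, however, were 1310.4, 768, 1039 and 716, with replicates 1 and 3 of series B above replicates 2 and 4 of series A.

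KIF5C had 373, 433, 401 and 298 in stearic acid samples, against 742, 603, 631 and 776 in control. All stearic acid samples lay below all others, elaidic acid samples of the same slide series included, and the difference from control was called (limma adjusted p = 0.0325). Within slide series B its elaidic minus stearic difference was 1.01 ± 0.34 (adjusted p = 0.56).

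KIF17 had 881, 1329, 761 and 961 in stearic acid samples, against 1805, 1736, 2096 and 2031 in control. Stearic acid replicate 2 was the highest of its group and still below all controls (limma adjusted p = 0.00943). KIF1C (PH_hs_0025389) had 207, 166, 239 and 223 in stearic acid samples, against 142, 76.1, 139 and 91.8 in control. Again the groups did not overlap (limma adjusted p = 0.0117), and elaidic acid samples of both slide series, at 96.8, 134, 130.1 and 102, lay below all stearic acid samples.

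In these calls all stearic acid samples lie in slide series B and all control samples in series A. In 7 of the 10 probes elaidic acid samples of series B differed from series A in the same direction as stearic acid from control. The same held for 18 of all 26 other kinesin probes and 3 of the 6 mitotic ones, so among the other kinesins the match was not particular to the called probes. The share over all probes was not counted. With slide series as a block 0 of the 10 were called by limma, as were 0% of all probes, and the median size of their change was 0.30, against 0.92 without it. The sign turned for 2 of the 10, KIF25 (0.11) and KIF21B (0.35). KIF4A and KIF2C had a series difference among elaidic acid samples of -0.13 and -0.55, opposite in sign to their stearic acid change. The median size of their change was 1.62 with the block and 1.28 without it. The block takes its series difference from the elaidic acid samples alone, 2 in each series. The sign matches and the blocked values given here are therefore the same comparison and not separate observations.

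KIF21A (PH_hs_0024231), which restrains microtubule growth, shows the pattern in single samples. Its elaidic acid values were 271, 33.2, 120.4 and 31.8, high in replicates 1 and 3 of series B and low in replicates 2 and 4 of series A. Stearic acid samples had 148, 76.8, 156 and 179, against 20.5, 75.0, 25.6 and 61.6 in control, and the difference of 1.76 ± 0.66 did not pass (limma adjusted p = 0.0546). With the block it was -0.72 ± 0.86. The part of slide series in these differences was not tested beyond the block.

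The count of called kinesin probes in stearic acid against control, 12 in all, moved with single samples. It was 6 without control replicate 1, control replicate 3, stearic acid replicate 1 or stearic acid replicate 4, and 7 without stearic acid replicate 3. KIF13B, KIF17, KIF1C and KIFC3 among the other kinesins, and KIF4A, were called in each of the 16 fits that left out 1 sample.

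Oleic against stearic acid gave 11 calls among the 26 other kinesin probes and 0 of 6 mitotic ones, where 39.5% of all probes were called, 21.0% higher and 18.4% lower with oleic acid. Higher with oleic acid were KIF3A, KIF5C, KIF12, KIF17, KIF19, KIF25 and the same KIF21B probe, from 0.84 (KIF12) to 1.76 (KIF21B). Lower were KIF13B, KIF21A, KIFC2 and KIFC3, from -2.28 (KIF21A) to -0.51 (KIF13B). With slide series as a block the sign turned for KIF21B (-0.64), KIF21A (0.20) and KIFC2 (0.061). The 7 higher and 4 lower became 7 and 3 with median centring, 7 and 7 with cyclic loess and 0 and 8 without normalisation, where the median of all probes was -0.39, against 0.21 with quantile normalisation. In the blocked fit limma called 0, and the total of 11 was 5 without oleic acid replicate 4, 6 without stearic acid replicate 1 and 7 without stearic acid replicate 4.

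**Figure D5:**
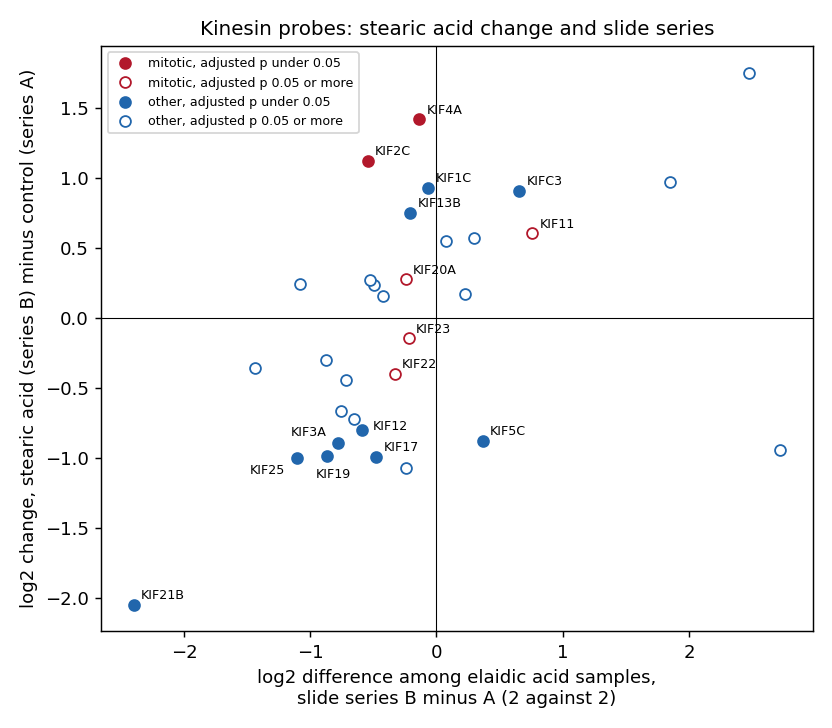
Log2 change of each tested kinesin probe with stearic acid (slide series B) minus control (series A), plotted against the difference between the elaidic acid samples of series B and those of series A (2 against 2). Of the 10 other kinesin probes called, 7 lie in the quadrants where both differences have the same sign. So do 18 of all 26 other kinesin probes and 3 of the 6 mitotic ones, but not the called KIF4A and KIF2C. The share over all probes was not counted.

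Genes that work with kinesins were read from 5 lists. Of 16 testable partners of mitotic kinesins in the spindle and midzone, 11 were higher with elaidic acid than in control, where 43.5% of all probes were, with a median of 1.10. Of the 16, 3 were called, all higher, against 0.305% of all probes. They were NUSAP1 (1.94 ± 0.27), which bundles spindle microtubules, BIRC5 (1.42 ± 0.27), the survivin subunit of the passenger complex carried by KIF20A, and CENPE (1.55 ± 0.26), a kinetochore motor. RACGAP1, the partner of KIF23 in centralspindlin, had a difference of -0.06 ± 0.41, and PRC1, which recruits KIF4A, one of 1.52 ± 0.64, and neither passed (limma adjusted p = 0.95 and 0.31). With the slide series block these 2 differences were -0.41 and 0.15. ECT2, CIT, SPAG5 and INCENP were also not higher, with differences from -0.60 to -0.09 without the block.

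Of 22 testable proliferation markers 17 were higher with elaidic acid than in control, against 43.5% of all probes, with a median of 0.76. Called were 4, all higher (0.305% of all probes): CCNB2, RRM2, MKI67 and TK1. The 5 that were not higher, MYBL2, E2F1, CDC2, CCNE2 and UBE2C, had differences from -0.67 to -0.03. The part of cell proliferation in the kinesin differences was not tested. With slide series as a block 1 of the 16 partners and 2 of the 22 markers were called, against 0.0392% of all probes, with medians of 0.86 and 0.53. In stearic acid against control 8 partners (5 higher, 3 lower) and 11 markers (10 higher, 1 lower) were called, where 29.8% of all probes were. Their medians were 0.66 and 0.91. With the block 0 of either list were called for stearic acid, with medians of 0.09 and 0.28.

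In the 3 lists of the transport machinery limma called 0 genes in elaidic acid against control, where 0.323% of all probes were called and 14.3% reached an unadjusted p under 0.05. Of 20 light chains and cargo adaptors of kinesins, 13 were higher and 2 reached that unadjusted p, and the median was 0.22, or 0.05 with the slide series block. Of 20 subunits and adaptors of dynein and dynactin, the motor that runs the opposite way, 16 were higher, where 43.5% of all probes were, and 4 reached it. Their median was 0.48, or 0.03 with the block. Of 15 tubulins 8 were higher and 1 reached it, and the median was 0.06, or -0.16 with the block. In stearic acid against control 8 of the 20 dynein and dynactin genes were called, where 29.8% of all probes were, with a median of 1.02, and 0 with the block, with a median of 0.11. No test compared these lists with the mitotic kinesins.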

How the data were processed

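Per the labels' protocols, RNA of HepG2 cells was amplified with aminoallyl-UTP, coupled to Cy5 and hybridised to 1-colour arrays. The authors deposited 1 linear, background-subtracted intensity per probe and sample. Their background method, any scaling and the way the 2 technical replicates were combined are not given in the sources used here. Symbols are those of the platform's probe table and were not updated.

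Probes with a deposited intensity at or below 0 in 1 or more samples were left out, which kept 22939 of 30968 (74.1%). The others were transformed to log2, quantile normalised and tested with limma (version 3.58.1, R 4.3.3) on all 16 samples, two-sided, with Benjamini-Hochberg adjustment over all probes tested. The fit was checked on simulated data with independent samples, changes in elaidic acid only and no slide series effect. That check therefore cannot speak to the part of slide series in the calls. Intervals are 95% intervals of that model. In counts per gene and in the 5 lists, a gene was represented by its tested probe with the highest mean. Groups follow the sample titles, and slide series the array numbers in the labels. Named were all mitotic kinesins, other kinesins called in any contrast, those of smallest p, the 5 brightest others, and genes whose probes disagreed in sign. Members and lists were chosen with earlier results of these data known. Alternatives covered normalisation, values at or below 0, dim probes, blocks, subsets, moderation, array weights and each sample left out. Motifs were searched on both strands in RefSeq promoters (GRCh38.p14). Plots were made with matplotlib 3.10.9 (Python 3.11.15).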

Additional observations from a re-analysis of the deposited data

Results flagged for a closer look

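In 7 of 112 groups of 4 samples (28 probes of named kinesins in 4 groups), 1 sample stood apart from the others. Its gap, as a share of the group's range, passed Dixon's 95% critical value. The scale was log2, as in all 7, or deposited intensity for the 4 mitotic probes left out of the tests. Chance flags about 1 in 20 groups, so a count of this size is close to what chance gives. KIF11 was low in oleic acid replicate 1, at a normalised intensity of 6.13. KIF22 was high in oleic acid replicate 2, at 10047. KIF1C was high in oleic acid replicate 1, at 161. KIF5C was high in elaidic acid replicate 3, at 954. KIFC3 was high in stearic acid replicate 4, at 1653. KIF13B was low in control replicate 4, at 260.1, within a group of very narrow range. The second KIF27 probe (PH_hs_0037849) was low in elaidic acid replicate 4, at 0.225, and its group mean on the log2 scale rests on that sample. Without oleic acid replicate 1, KIF11 was called in elaidic acid against control, with a limma adjusted p of 0.0443.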

How the results depend on the processing

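The mitotic kinesins had a positive median with elaidic acid against each other group under every alternative run. With a floor of 1 or an offset of 50 that median covers 9 genes, KIF14, KIF15 and KIF18A included. With the brighter 50% of probes it leaves out KIF11 and KIF23. KIF4A and KIF2C kept a positive change from control under every alternative. Their calls were lost without normalisation and with slide series as a block, alone or together with replicate number. They were also lost with 1 slide series in the fit and with only 2 groups in the fit, which hold fewer samples. The cause of these losses and of the other changes below was not tested. Array numbers limit precision throughout, and KIF11 and KIF23, with intensities under 45, and the 11 probes left out lie near background. So do the tested probes of KIF1B, KIF2B, KIF5A, KIF9 and KIF27, with mean intensities from 8.36 (KIF9) to 18.4 (KIF2B).

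Counts of called kinesin probes for elaidic acid minus control were 6 with array weights and 0 without normalisation, with 1 slide series, with 2 groups and with the slide series block, alone or with replicate number. For stearic acid minus control they were 5 without normalisation and 0 with the slide series block, alone or with replicate number. For oleic minus stearic acid they were 17 with array weights and 0 with either of those blocks. For elaidic minus oleic acid they were 13 with array weights, 1 with the brighter 50% of probes and 1 with an offset of 50. For elaidic minus stearic acid they were 4 with array weights, 1 with the brighter 50%, 1 with trend and robust moderation and 2 with the offset.

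Medians of the mitotic kinesins moved with a floor of 1, which brings in the dim probes, to 1.09 (elaidic minus control), 0.34 (oleic minus control), 1.15 (elaidic minus oleic) and -0.27 (oleic minus stearic). An offset of 50 also brings in the dim probes and shrinks changes of dim ones. With it the medians were 0.47, 0.17 and 0.086 for elaidic, oleic and stearic acid minus control. They were 0.30 and 0.38 for elaidic minus oleic and minus stearic, and -0.054 for oleic minus stearic. Without normalisation they were 0.82 (stearic minus control), 0.52 (elaidic minus stearic) and -0.38 (oleic minus stearic), and oleic minus stearic was 0.034 with the brighter 50%.

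Medians of the other kinesins for stearic minus control were -0.51 with the brighter 50%, -0.32 with the floor, -0.33 with the mean over probes, -0.22 with median centring, 0.28 without normalisation, 0.18 with the slide series block and 0.19 with both blocks. For elaidic minus control they were -0.18 with array weights, 0.14 without normalisation and 0.13 with both blocks. For elaidic minus oleic they were -0.35 with the brighter 50%, 0.033 without normalisation, 0.0056 with 1 slide series or the block and 0.0049 with both blocks. For elaidic minus stearic they were -0.072 with array weights, -0.14 without normalisation, -0.056 with 1 slide series or the block and -0.011 with both blocks. For oleic minus stearic they were -0.12 without normalisation, 0.15 with the offset, 0.031 with the block and -0.11 with both blocks.

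Single genes changed sign as follows. Without normalisation these were KIF11 (-0.0020), KIF20A (-0.46) and KIF22 (-0.31) in oleic minus stearic, KIF22 (0.35) and KIF23 (0.083) in stearic minus control, and KIF5C (0.17) in elaidic minus control. In elaidic minus control KIF5C was 0.24 and KIF5B -0.16 with array weights, and KIF5C was 0.0058 with cyclic loess. With the slide series block KIF11 (-0.15), KIF23 (0.074), KIF21B (0.35) and KIF25 (0.11) turned in stearic minus control, KIF21A (0.20), KIF21B (-0.64) and KIFC2 (0.061) in oleic minus stearic, and KIF3A (0.039) and KIFC3 (-0.071) in elaidic minus control, the last 2 also with 1 slide series. With both blocks KIF23 (0.18), KIF3A (0.18), KIF21B (0.49) and KIF25 (0.26) turned in stearic minus control, KIF21A (0.48), KIF21B (-0.78), KIF25 (-0.11), KIF3A (-0.10) and KIFC2 (0.21) in oleic minus stearic, and KIF3A (0.19), KIF3C (0.12) and KIFC3 (-0.10) in elaidic minus control.

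Replicate numbers did not pair the samples: over 24 pairs of samples with the same number, deviations from the group means correlated between -0.46 and 0.36, with 7 pairs over 0.1. With replicate number alone as a block the counts of called kinesin probes were 2 for elaidic minus control, 8 for stearic minus control and 10 for oleic minus stearic acid.

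Leaving out 1 sample at a time gave 2 to 3 called kinesin probes for elaidic minus control, 6 to 13 for stearic minus control and 5 to 13 for oleic minus stearic acid. For stearic minus control the count was 6 without control replicate 1 or 3 or stearic acid replicate 1 or 4, and 7 without stearic acid replicate 3. For oleic minus stearic acid it was 5 without oleic acid replicate 4, 6 without stearic acid replicate 1 and 7 without stearic acid replicate 4. Medians of the mitotic kinesins ran from 1.38 to 1.69 for elaidic minus control, from 0.69 to 0.94 for elaidic minus oleic and from 0.82 to 1.05 for elaidic minus stearic acid. Medians of the other kinesins ran from -0.29 (without control replicate 4) to -0.063 for stearic minus control, from -0.036 (without elaidic acid replicate 2) to 0.31 (without elaidic acid replicate 3) for elaidic minus stearic acid, and from 0.25 (without oleic acid replicate 4) to 0.54 for oleic minus stearic acid. Single genes that changed sign were KIF23 in stearic minus control (-0.36 to 0.092), and in elaidic minus control KIF5C (-0.23 to 0.019) and KIF5B, with a lowest value of -0.092 without elaidic acid replicate 4.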
